A study of Mus musculus with 12 samples.

Results

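The Gimap genes encode the GTPases of the immunity-associated proteins, a family of 8 genes of the mouse genome counted here: Gimap1, Gimap3, Gimap4, Gimap5, Gimap6, Gimap7, Gimap8 and Gimap9. They were picked by symbol from a table of 37310 genes because they form 1 gene cluster and because Gimap9 was higher in Runx1KO than in Control neutrophils after LPS. All 8 members have an entry in the table, and 5 of 8 (Gimap1, Gimap3, Gimap4, Gimap6 and Gimap9) passed the filter on low counts that left 12917 genes for testing. The values of Gimap9 in Runx1KO LPS against Control LPS therefore chose the family, and everything from that contrast is given below as a description, with no test.

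The libraries were bulk RNA-seq of neutrophils taken from the hind-limb marrow of C57BL/6 mice by sorting for CD11b and Ly6G and against Siglec F and the antigen encoded by Adgre1. The 4 groups, with 3 libraries each, were Runx1KO cells given LPS, Control cells given LPS, Runx1KO cells given vehicle and Control cells given vehicle. LPS, the bacterial lipopolysaccharide that is sensed through Toll-like receptor signalling, was used at 100 ng/mL, and both treatments lasted 2 h in culture. The Cre driver, the deleted part of Runx1 and the age of the mice were not given in the sources used here. The series' design text describes the Control material as marrow pooled from 1 Runx1f/f and 1 Runx1f/- animal and as LKS- cells, whereas the sample labels describe sorted neutrophils; a germline Runx1 allele may thus be missing in some of the Control cells. The labels do not state whether each library is a different mouse, and the p-values below thus measure only library-to-library spread, which may be technical.

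GIMAP proteins are small GTPases with a shared GTP-binding domain, several of which sit in the membranes of mitochondria, lysosomes or the endoplasmic reticulum. They are known mainly from lymphocytes, where mice lacking Gimap1, Gimap5 or Gimap6 lose T or B cells. RUNX1 is the DNA-binding transcription factor that was deleted in the Runx1KO cells, and it binds sequences close to TGTGGT.

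Total counts were 19023610 to 26225169 per library, so 3 counts, taken here as the floor of detection, corresponded to 0.105 to 0.169 CPM, the depth-scaled level used here (edgeR, with TMM factors). Runx1 itself, counted over all its exons, averaged 56.9 ± 12.5 CPM in Runx1KO LPS and 36.4 ± 12.9 CPM in Control LPS, and 68.1 ± 7.46 CPM in Runx1KO vehicle and 43.9 ± 10.7 CPM in Control vehicle (SD, n = 3 each). A count over all exons does not check a deletion of part of the gene. Defining neutrophil genes were abundant in every library, with 12 of them (Ly6g, S100a8, Mmp9 and others) summing to 122800 to 194900 CPM. The libraries did not separate cleanly by treatment. The summed level of 10 LPS-induced genes (Tnf, Il1b, Cxcl2 and others) was 15980, 31600 and 74750 CPM in Runx1KO LPS libraries 1, 2 and 3 and 16640, 17570 and 1072 CPM in Runx1KO vehicle libraries 1, 2 and 3. It was 21880, 19600 and 24450 CPM in Control LPS and 16220, 12310 and 1970 CPM in Control vehicle. Runx1KO LPS library 1 thus lay below Runx1KO vehicle libraries 1 and 2, and the vehicle libraries numbered 3 stood far below those numbered 1 and 2.

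The promoters of the 3 members with the most reads per kilobase are shown because the deleted factor reads DNA directly and because these are the members that were higher in Runx1KO cells. Each stretch runs from 250 bases before to 50 bases after the annotated start (RefSeq, GRCm38.p6, which is not the mm9 build of the authors' alignment) and is written 5′ to 3′ on the strand of the gene. Capitals mark matches to TGTGGT or TGCGGT, the hexamers searched on both strands; ACCACA and ACCGCA are their reverse complements. The windows are chr6:48675885-48676184 on the plus strand for Gimap9, chr6:48708195-48708494 on the minus strand for Gimap6 and chr6:48684328-48684627 on the plus strand for Gimap4.
Gimap9: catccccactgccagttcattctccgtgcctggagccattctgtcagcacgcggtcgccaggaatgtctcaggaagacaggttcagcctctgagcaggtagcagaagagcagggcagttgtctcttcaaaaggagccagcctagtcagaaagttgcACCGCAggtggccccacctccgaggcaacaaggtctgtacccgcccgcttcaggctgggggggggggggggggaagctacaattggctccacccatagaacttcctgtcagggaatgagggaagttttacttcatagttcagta
Gimap6: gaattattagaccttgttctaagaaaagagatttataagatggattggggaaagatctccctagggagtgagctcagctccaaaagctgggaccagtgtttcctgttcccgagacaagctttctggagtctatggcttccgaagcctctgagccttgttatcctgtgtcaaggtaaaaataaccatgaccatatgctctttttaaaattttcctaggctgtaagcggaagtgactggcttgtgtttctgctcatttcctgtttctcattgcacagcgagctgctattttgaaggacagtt
Gimap4: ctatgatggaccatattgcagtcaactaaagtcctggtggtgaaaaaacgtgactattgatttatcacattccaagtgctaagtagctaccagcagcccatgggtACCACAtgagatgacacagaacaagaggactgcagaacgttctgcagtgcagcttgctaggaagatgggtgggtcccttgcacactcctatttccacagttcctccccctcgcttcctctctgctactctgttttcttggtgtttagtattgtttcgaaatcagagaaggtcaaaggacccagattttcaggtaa
The Gimap9 window held 1 match to TGCGGT, beginning at position -94 relative to the start of the gene, and the Gimap4 window held 1 match to TGTGGT at position -145. No match was found in the Gimap6 window. Among the other members, the windows of Gimap1 and Gimap7 held 1 match to TGTGGT each, at -95 in Gimap1 and -79 in Gimap7, and those of Gimap3, Gimap5 and Gimap8 held none. Of all 32851 promoter windows of the same length, 16.8% held TGTGGT, 6.45% held TGCGGT and 22.4% held either. A match describes letters in a window and is not a binding site.

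Gimap9 (ENSMUSG00000051124.6) had the most reads of the family in every library except Control vehicle library 3, where Gimap6 had 78 reads and Gimap9 had 34. It had 274, 1350 and 1340 reads in Runx1KO LPS libraries 1, 2 and 3, against 104, 135 and 106 reads in Control LPS. In vehicle it had 483, 532 and 321 reads in Runx1KO, against 82, 104 and 34 reads in Control. By mean CPM the groups ranked Runx1KO LPS, Runx1KO vehicle, Control LPS and Control vehicle. Neighbours in this order did not overlap between libraries, except Runx1KO LPS and Runx1KO vehicle.

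**Figure D1:**
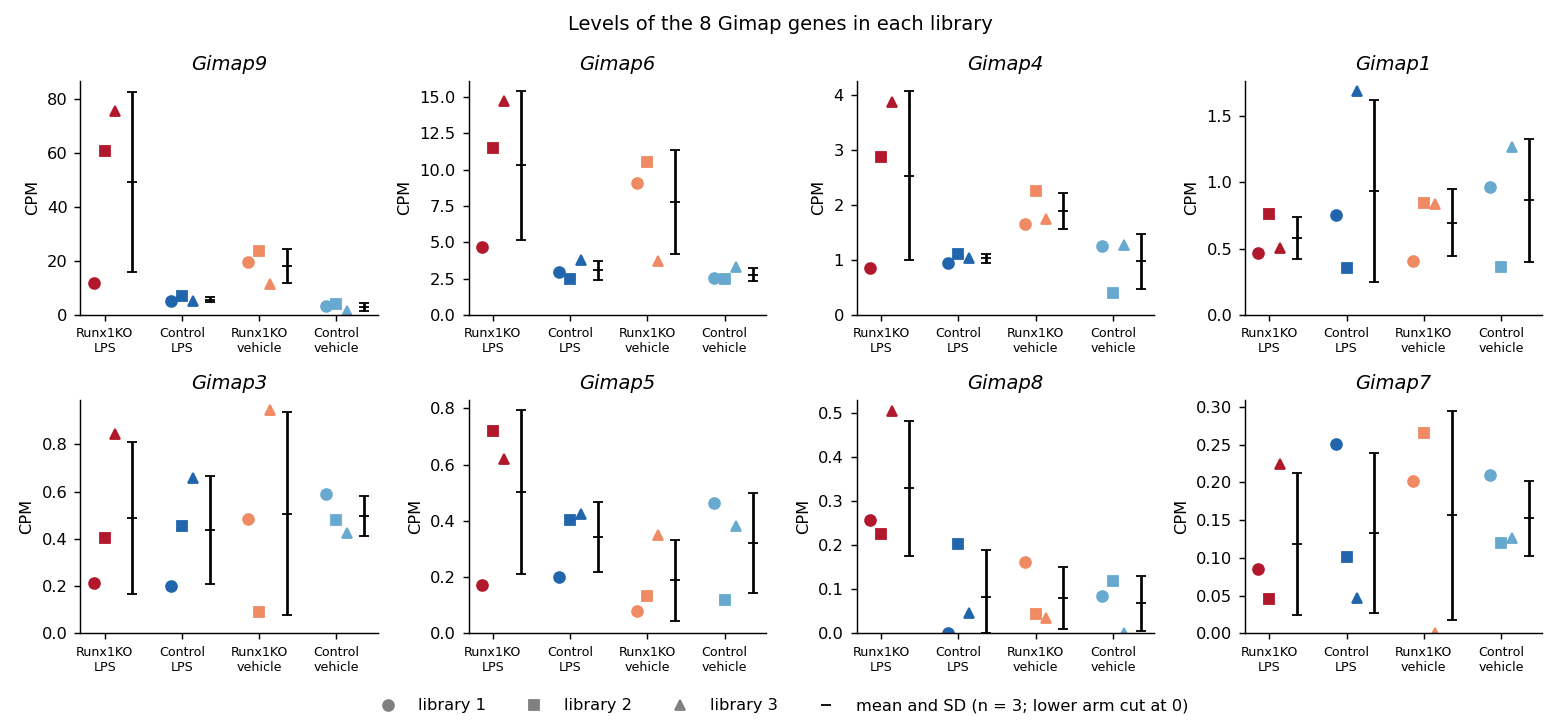
CPM of each member in every library, in the order Runx1KO LPS, Control LPS, Runx1KO vehicle and Control vehicle, with the mean and SD of 3 libraries to the right of the points; each panel has its own axis from 0. Gimap9 lies at 11.3 to 75.3 CPM in the 6 Runx1KO libraries and at 1.44 to 6.83 CPM in the 6 Control libraries, and Gimap3 and Gimap7 overlap in all groups. Values of Gimap9 in the LPS libraries chose the family and are a description.

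With vehicle alone, a contrast that the choice of the family did not use, Gimap9 had 19.6, 23.6 and 11.3 CPM in Runx1KO neutrophils, against 3.44, 4.16 and 1.44 CPM in Control neutrophils. Same-numbered LPS and vehicle libraries of Control correlated in their deviations from the group means (0.667, 0.659 and 0.394). The vehicle contrast may thus not be independent of the libraries that chose the family. All 3 Runx1KO libraries were above all 3 Control libraries, and the lowest Runx1KO value was more than double the highest Control value. The log2 fold change was 2.59 (SE 0.60, 95% interval 1.27 to 3.91), or 6.00-fold, and the adjusted p was 0.0778 (edgeR's quasi-likelihood test, Benjamini-Hochberg over all genes tested), which misses the threshold of 0.05. By library number, Runx1KO minus Control was 2.48, 2.48 and 2.89 on the log2 CPM scale for libraries 1, 2 and 3. The call depended on the setting. Adjusted p was 0.00114 with DESeq2, 0.0186 with no filter on low counts, 0.0407 with library size alone and 0.0116 without Runx1KO LPS library 1. That library enters this contrast only through the shared spread, the filter on low counts and the scaling. The adjusted p was 0.0539 with the library number as a block and 0.105 to 0.268 without single vehicle libraries.

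Gimap6 (ENSMUSG00000047867.5), whose product is known as a partner of the autophagy protein GABARAPL2, had the next most reads. With vehicle it had 9.11, 10.5 and 3.71 CPM in Runx1KO neutrophils, against 2.52, 2.48 and 3.30 CPM in Control neutrophils. The groups did not overlap, but Runx1KO library 3 lay close to the Control libraries. The log2 fold change was 1.49 (SE 0.46, 95% interval 0.48 to 2.49; adjusted p = 0.236, edgeR). By library number the difference was 1.82, 2.05 and 0.17, so the pair numbered 3 added little to it.

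Gimap4 (ENSMUSG00000054435.8), a T cell member linked to the pace of cell death, had 1.66, 2.26 and 1.75 CPM in Runx1KO vehicle neutrophils, against 1.26, 0.400 and 1.27 CPM in Control vehicle neutrophils. The groups did not overlap, with a narrow gap between the lowest Runx1KO library and the highest Control library. The log2 fold change was 0.95 (SE 0.56, 95% interval -0.26 to 2.16; adjusted p = 0.853, edgeR).

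Gimap1 (ENSMUSG00000090019.2), needed for mature T and B cells, had 10, 19 and 24 reads in Runx1KO vehicle and 23, 9 and 30 reads in Control vehicle. The groups overlapped, and the log2 fold change was -0.31 (95% interval -1.70 to 1.08; adjusted p = 1, edgeR). Gimap3 (ENSMUSG00000039264.8), the close paralog of Gimap5, had 12, 2 and 27 reads in Runx1KO vehicle and 14, 12 and 10 reads in Control vehicle. Its log2 fold change was 0.04 (95% interval -1.62 to 1.71; adjusted p = 1, edgeR). For both genes the interval leaves room for changes of more than double in either direction, so these libraries do not exclude a difference of that size.

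In all, 0 of the 5 members were called in vehicle by edgeR, where 0.952% of all genes tested were called in either direction; 2 of the 5 (Gimap9 and Gimap6) had an unadjusted p under 0.05, against 7.79% of all genes tested, and 1 (Gimap9) was called by DESeq2, which called 158 genes higher and 228 lower over the whole table. Of the 12917 genes, 45 were called higher and 78 lower in Runx1KO vehicle, and 114 higher and 201 lower with the library number as a block. Leaving out any 1 of the 6 vehicle libraries left 15 to 29 called higher and 32 to 50 called lower. Runx1KO libraries lay above all Control libraries for 3 of the 5 members (Gimap9, Gimap6 and Gimap4), against 5.42% of all genes tested. The median log2 fold change was 0.95 over the 5 members and 0.0025 over all genes tested. In bulk libraries, a change in the share of cells that express a gene and a change in its RNA per cell cannot be told apart.

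**Figure D2:**
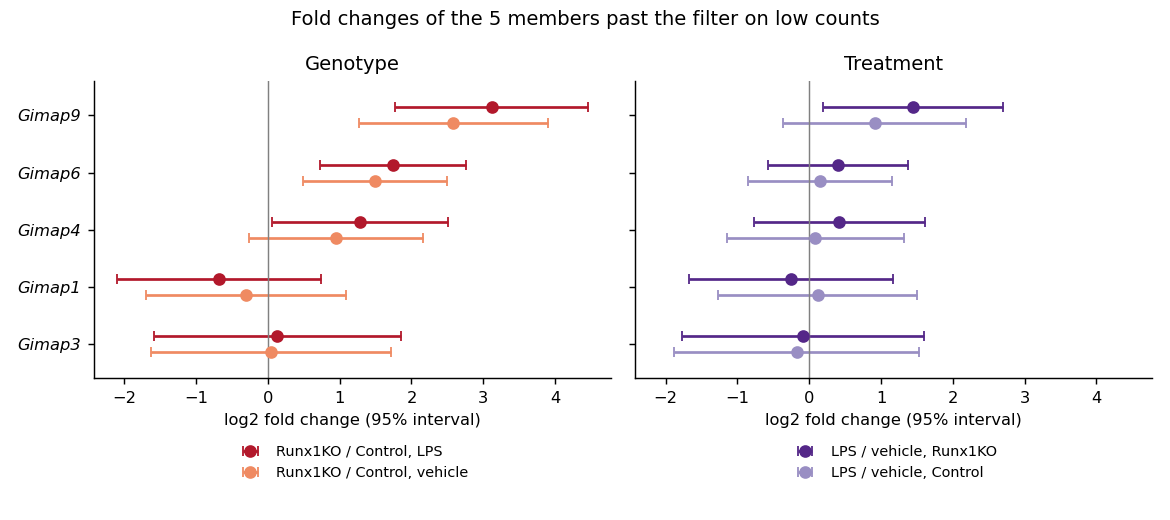
Log2 fold changes of the 5 members past the filter with 95% intervals, for genotype (left: Runx1KO over Control, in LPS and in vehicle) and for treatment (right: LPS over vehicle, in Runx1KO and in Control). In vehicle the order is Gimap9 (2.59), Gimap6 (1.49), Gimap4 (0.95), Gimap3 (0.04) and Gimap1 (-0.31), and the LPS values, from the contrast that chose the family, are a description.

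After LPS, in the contrast that chose the family, Gimap9 had 11.7, 60.6 and 75.3 CPM in Runx1KO neutrophils, against 5.21, 6.83 and 4.99 CPM in Control neutrophils. Runx1KO library 1 stood well below the other two, although still above every Control library. The log2 fold change was 3.12, or 8.66-fold, and 3.58 without Runx1KO LPS library 1. Gimap6 had 4.67, 11.5 and 14.7 CPM in Runx1KO LPS and 2.96, 2.48 and 3.77 CPM in Control LPS, with a log2 fold change of 1.74. Library 1 was again the lowest of the Runx1KO LPS libraries. Gimap4 had 0.856, 2.87 and 3.88 CPM in Runx1KO LPS and 0.952, 1.11 and 1.04 CPM in Control LPS, and here library 1 fell below all 3 Control libraries. Gimap4, Gimap3 and Gimap1 had log2 fold changes of 1.29, 0.13 and -0.68, in that order, and overlapped between genotypes. No call of a member is given for this contrast, because its Gimap9 values chose the family. Groups did not overlap, with Runx1KO higher, for 2 of the 5 members (Gimap9 and Gimap6), against 6.51% of all genes tested. Of all genes tested, 45 were called higher and 74 lower in Runx1KO LPS, and 117 higher and 185 lower with the library number as a block. Gimap9 and the family were picked from this contrast, so these counts carry no weight of their own.

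The LPS response of the family was tested within each genotype; each of these contrasts shares its LPS libraries with the contrast that chose the family. In Runx1KO cells, Gimap9 averaged 49.2 ± 33.3 CPM with LPS and 18.1 ± 6.29 CPM with vehicle (SD, n = 3 each). LPS library 1, at 11.7 CPM, lay below vehicle libraries 1 and 2, so the treatments overlapped. The log2 fold change was 1.44 (SE 0.57, 95% interval 0.19 to 2.69; adjusted p = 0.873, edgeR), 1.90 (adjusted p = 0.21) without LPS library 1 and 0.996 (adjusted p = 1) without LPS library 3. By library number the difference was -0.73, 1.36 and 2.73, although the libraries numbered 3 did not behave as a pair in this contrast.

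In Control cells, Gimap9 averaged 5.68 ± 1.00 CPM with LPS and 3.01 ± 1.41 CPM with vehicle (SD, n = 3 each). All 3 LPS libraries were above all 3 vehicle libraries, a pattern seen in 2.84% of all genes tested. The log2 fold change was 0.91 (SE 0.58, 95% interval -0.36 to 2.19; adjusted p = 1, edgeR), and by library number it was 0.59, 0.70 and 1.73. The difference of the LPS responses, Runx1KO minus Control, was 0.53 (SE 0.81, 95% interval -1.24 to 2.30; adjusted p = 1, edgeR's test of the interaction).

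The other 4 members tested had log2 fold changes of -0.26 to 0.42 with LPS in Runx1KO and of -0.18 to 0.15 in Control cells. Gimap6 had 0.41 (SE 0.45; adjusted p = 0.921, edgeR) in Runx1KO and 0.15 (SE 0.46; adjusted p = 1, edgeR) in Control cells. No member was called in either LPS contrast or in the difference, and 0% of all genes tested were called in any of the 3 by edgeR. An unadjusted p under 0.05 was reached by 676 genes in Runx1KO, 78 in Control and 77 in the difference, and by 1 member (Gimap9 in Runx1KO); DESeq2 called 0 members and, in Runx1KO, 1 other gene. The values of the LPS-induced genes given above show that the treatment separated these libraries incompletely, and their part in the Gimap9 result was not tested.

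**Figure D3:**
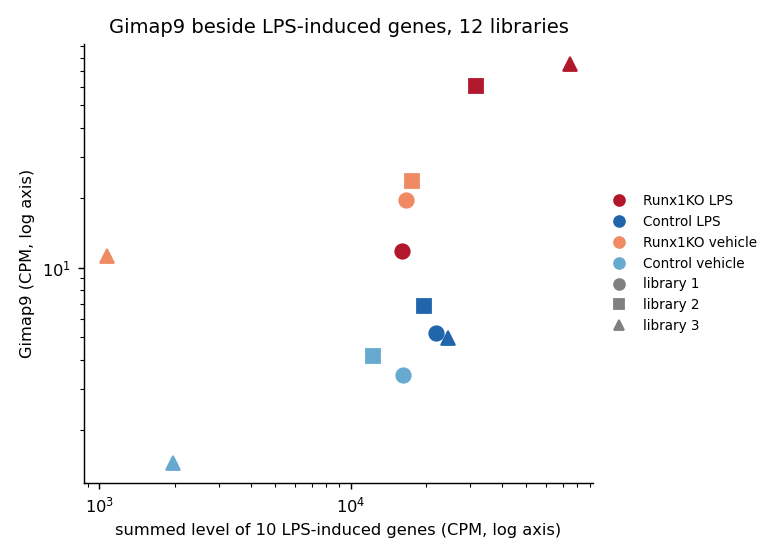
Gimap9 (vertical, CPM, log axis) against the summed CPM of 10 LPS-induced genes (horizontal, log axis) in 12 libraries, coloured by group and with 1 symbol per library number. All 6 Runx1KO points lie above all 6 Control points, from Runx1KO vehicle library 3 (1072 CPM of LPS-induced genes, 11.3 CPM of Gimap9) to Runx1KO LPS library 3 (74750 and 75.3 CPM). The LPS libraries chose the family through Gimap9, so their separation is a description.

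Levels were compared between members per kilobase of exon, with exon lengths from GENCODE vM21, which is not the annotation of the counting. In Runx1KO LPS, Gimap9 had 30.0 ± 20.3 CPM per kilobase, Gimap6 2.95 ± 1.47 and Gimap4 1.38 ± 0.838 (SD, n = 3). In Control LPS the levels were 3.46 ± 0.611 CPM per kilobase for Gimap9, 0.877 ± 0.186 for Gimap6 and 0.563 ± 0.0437 for Gimap4. In vehicle, Gimap9 stood at 11.0 ± 3.83 CPM per kilobase in Runx1KO and at 1.84 ± 0.858 in Control. The order Gimap9, Gimap6, Gimap4 was the same in all 4 groups, and the remaining 5 members had group means of at most 0.304 CPM per kilobase. Gimap9 and Gimap6 overlapped between libraries in Control vehicle alone; Gimap6 and Gimap4 overlapped in both Runx1KO groups; and Gimap4 overlapped with Gimap1 in both Control groups. Below Gimap4, neighbours in the order overlapped, except that Gimap3 lay above Gimap5 and Gimap7 above Gimap8 in Control vehicle.

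Gimap9 took a larger share of the reads of the family in Runx1KO cells. The LPS shares come from the libraries that chose the family through Gimap9, so they restate that choice and are a description. It held 63.6%, 78.6% and 78.0% of the family's reads in Runx1KO LPS libraries 1, 2 and 3, against 49.5%, 57.2% and 39.4% in Control LPS. In vehicle it held 61.8%, 62.5% and 59.6% in Runx1KO, against 36.1%, 50.5% and 17.5% in Control. The lowest share in a Runx1KO library was above the highest in a Control library, although the exact (Clopper-Pearson) 95% intervals of those libraries, 55.3 to 63.7% and 50.6 to 63.6%, overlapped. The other 7 members together had 6.72, 16.5 and 21.3 CPM in Runx1KO LPS and 5.31, 5.11 and 7.67 CPM in Control LPS. They had 12.1, 14.1 and 7.64 CPM in Runx1KO vehicle and 6.09, 4.08 and 6.77 CPM in Control vehicle.

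**Figure D4:**
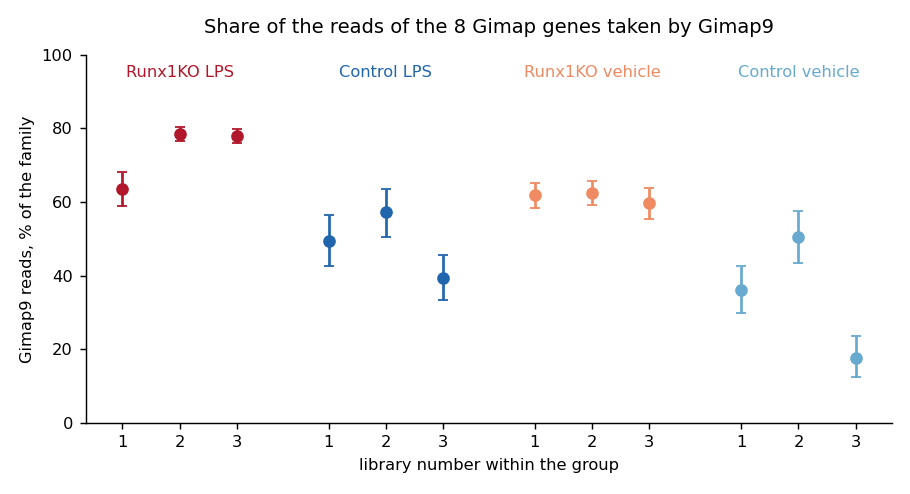
Share of the reads of the 8 members taken by Gimap9 in each library (percent), with exact 95% intervals that cover counting error only. Runx1KO libraries range from 59.6 to 78.6% and Control libraries from 17.5 to 57.2%, with the lowest share in Control vehicle library 3. The LPS libraries are those that chose the family through Gimap9.

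Gimap5, Gimap7 and Gimap8 stayed under the filter on low counts and had no test. Gimap5 (ENSMUSG00000043505.7), known for the survival of lymphocytes, had 4, 16 and 11 reads in Runx1KO LPS and 4, 8 and 9 reads in Control LPS. It had 2, 3 and 10 reads in Runx1KO vehicle and 11, 3 and 9 reads in Control vehicle. Per depth, its summed reads in Runx1KO LPS were 2.47 times those in Runx1KO vehicle (95% counting interval 1.29 to 4.93), but the libraries overlapped. Gimap8 (ENSMUSG00000064262.4), the member with several GTP-binding domains, had 6, 5 and 9 reads in Runx1KO LPS and 0, 4 and 1 in Control LPS. It had 4, 1 and 1 reads in Runx1KO vehicle and 2, 3 and 0 in Control vehicle. Its summed reads per depth were 3.85 times as high in Runx1KO LPS as in Control LPS (95% counting interval 1.40 to 13.1), from 20 and 5 reads, and 1.15 times as high in Runx1KO vehicle as in Control vehicle (0.292 to 4.75). Gimap7 (ENSMUSG00000043931.9) had 0 to 6 reads in every library, with 7 in all for Runx1KO LPS, 8 for Control LPS, 11 for Runx1KO vehicle and 11 for Control vehicle. These intervals cover counting error and leave out the spread between libraries.

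All 8 members lie side by side on chromosome 6 in the order Gimap8, Gimap9, Gimap4, Gimap6, Gimap7, Gimap1, Gimap5 and Gimap3, with Gimap6 and Gimap3 on the minus strand. Repin1, Zfp775 and AI854703 come before Gimap8, and Tmem176b, Tmem176a and Aoc1 follow Gimap3. The 3 members with the most reads are neighbours, and within them Gimap4 lies between Gimap9 and Gimap6. In vehicle, the log2 fold changes of Runx1KO over Control were 0.79 (SE 0.78) for Repin1, 1.22 (SE 0.72) for Zfp775, 1.11 (SE 0.76) for Tmem176b and 2.02 (SE 0.95) for Tmem176a, with adjusted p values of 0.668 to 1 (edgeR). None was called, and AI854703 and Aoc1 had at most 6 reads in a group. Tmem176a averaged 0.908 ± 0.691 CPM in Runx1KO vehicle and 0.222 ± 0.137 CPM in Control vehicle (SD, n = 3 each), and its libraries overlapped, as did those of Repin1. Zfp775 had 0.567 to 0.665 CPM in Runx1KO vehicle and 0.0840 to 0.519 CPM in Control vehicle, and Tmem176b had 1.38 to 2.87 CPM and 0.839 to 1.10 CPM in the same groups. The libraries of 2 of the 4 neighbours tested thus did not overlap in vehicle, with Runx1KO higher, against 5.42% of all genes tested. Of these 2, Zfp775 had only 2 to 17 reads in a vehicle library, with a narrow gap between the groups.

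**Figure D5:**
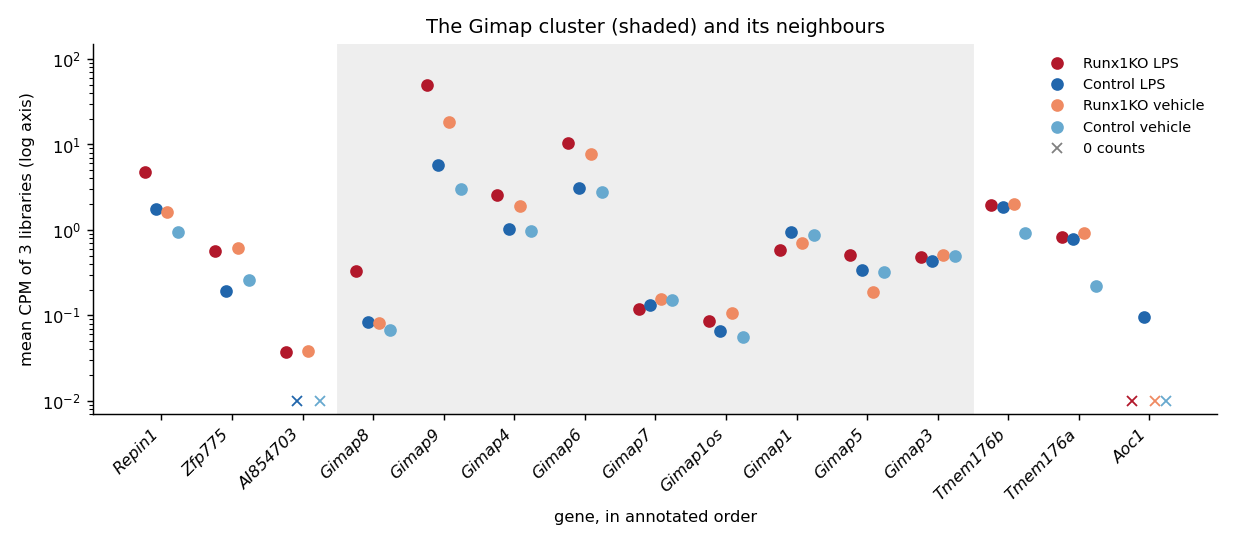
Mean CPM of 3 libraries (log axis) for the genes of the cluster (shaded) and 3 protein-coding genes on each side, in annotated order and not to scale, with crosses for groups at 0 reads. The Runx1KO means of Gimap9, Gimap4 and Gimap6 lie above the Control means in both treatments, and those of Gimap1 lie below them. For LPS these means come from the contrast that chose the family and are a description.

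Some of these counts are uncertain. Gimap3 and Gimap5 share 190 stretches of 50 bases, 9.06% of those of Gimap3 and 9.98% of those of Gimap5, so reads could be split between them or lost. Gimap9, Gimap6 and Gimap4 share no stretch of 50 bases with another member. The antisense gene Gimap1os overlaps Gimap1 and had 0 to 7 reads in every library; the strand setting of the counting is not given, so the reads of this pair cannot be told apart. A protein-coding read-through gene annotated between members has no entry of its own in the table.

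Since the family is known from lymphocytes, the markers of other cell types are given beside it. Of 17 T and NK cell markers, 12 were tested in vehicle, and 1 was called, Cd3d, lower in Runx1KO at 2.40 ± 0.691 CPM, against 38.5 ± 7.89 CPM in Control (SD, n = 3 each; log2 fold change -4.00, SE 0.30; adjusted p = 0.000209, edgeR). The other 16 markers summed to 7.28 to 23.9 CPM in Runx1KO LPS, 5.72 to 14.4 in Control LPS, 7.57 to 16.2 in Runx1KO vehicle and 6.07 to 15.0 in Control vehicle. These ranges overlapped in all groups. Some of these genes were at or near 0, with 0 to 12 reads of Cd3e, 0 to 3 of Thy1 and 0 to 4 of Ncr1 per library. Others were not, with 5 to 29 reads of Lck, 2 to 37 of Cd2, 9 to 76 of Il7r and 1 to 108 of Cd247, the last highest in Runx1KO LPS library 3.

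Of the B lineage markers, Ms4a1, which encodes CD20, was called lower in Runx1KO vehicle (adjusted p = 0.00634, edgeR). It had no reads in the 3 Runx1KO vehicle libraries and averaged 1.73 ± 0.957 CPM in Control vehicle (SD, n = 3). Of 9 megakaryocyte and platelet markers tested, 5 (Ppbp, Pf4, Itga2b, Gp5 and Treml1) were called higher in Runx1KO vehicle, and the 10 markers summed to 49.3 to 57.9 CPM in Runx1KO vehicle and 28.1 to 34.9 CPM in Control vehicle. Of the stem and progenitor markers, Procr was called higher (1 of 9 tested), with sums of 47.6 to 85.7 CPM in Runx1KO vehicle and 46.5 to 56.4 CPM in Control vehicle. Of the endothelial markers, Eng and Tek were called higher (2 of 5 tested), with sums of 6.43 to 10.0 CPM in Runx1KO vehicle and 3.82 to 4.12 CPM in Control vehicle. A positive log2 fold change was seen for 4 of the 5. Pecam1, an uncalled marker of this list, had 3.40, 2.44 and 3.29 CPM in Runx1KO vehicle, against 3.36, 2.32 and 3.47 CPM in Control vehicle. Of the basophil and mast cell markers, Mcpt8 and Prss34 were called lower (2 of 6 tested). Their list summed to 1.20 to 1.98 CPM in Runx1KO vehicle and 5.99 to 25.9 CPM in Control vehicle. Of the eosinophil markers, Ear2 was called lower (1 of 7 tested), but 3 of 7 had a positive log2 fold change. The eosinophil sums overlapped, at 9.47 to 28.7 CPM in Runx1KO vehicle and 10.9 to 35.3 CPM in Control vehicle. For comparison with these lists and with the T and NK cell markers, edgeR called 0.348% of all genes tested higher and 0.604% lower in Runx1KO vehicle. With libraries left out, the number of calls ranged from 0 to 6 for platelet and 0 to 2 for endothelial and for basophil and mast cell markers. It ranged from 0 to 1 for T and NK cell, progenitor and eosinophil markers. DESeq2 called 8 platelet and 3 endothelial markers, and 158 genes higher and 228 lower over the whole table.

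Monocyte and macrophage markers summed to 164.6 to 2002 CPM in Runx1KO LPS, 113.1 to 524.9 CPM in Control LPS, 213.9 to 567.1 CPM in Runx1KO vehicle and 115.4 to 383.1 CPM in Control vehicle. By edgeR, 0 of 10 were called in vehicle, with 0 at an unadjusted p under 0.05 and 0 by DESeq2. Of these monocyte and macrophage markers, 8 of 10 had a positive log2 fold change in vehicle (median 0.67), against 50.3% of all genes tested. The sum was higher in Runx1KO in each of the 3 same-numbered vehicle pairs, although the groups overlapped. After LPS, 8 of 10 were positive (median 1.17), against 52.6% of all genes tested. By edgeR 0 were called and 2 had an unadjusted p under 0.05, against 10.1% of all genes tested, and DESeq2 called 1. Adgre1 encodes the antigen that the sort selected against. It had 20.1, 317.6 and 1220 CPM in Runx1KO LPS, against 16.4, 121.5 and 206.9 CPM in Control LPS. In vehicle it had 24.8, 222.6 and 47.4 CPM in Runx1KO, against 15.5, 74.9 and 16.4 CPM in Control. The part of these markers in the Gimap9 result was not tested. Dendritic cell markers summed to 69.8 to 91.9 CPM in Runx1KO vehicle and 72.8 to 116.8 CPM in Control vehicle; 0 of 9 were called by edgeR, with 1 at an unadjusted p under 0.05 and 0 by DESeq2.

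The 12 mature neutrophil genes summed to 122800, 158800 and 128900 CPM in Runx1KO vehicle libraries 1, 2 and 3, against 166500, 176600 and 179700 CPM in Control vehicle, so the groups did not overlap and Runx1KO was lower. After LPS the sums were 169200 to 172300 CPM in Runx1KO and 166300 to 194900 CPM in Control, and the groups overlapped. The sort marker Ly6g had 106.4, 153.9 and 152.1 CPM in Runx1KO vehicle, against 417.8, 418.2 and 381.4 CPM in Control vehicle. After LPS, Ly6g was lower in Runx1KO as well, at 351, 155.5 and 157.9 CPM, against 471.2, 395.1 and 400 CPM in Control. Of the 12 genes, 2 had a positive log2 fold change in vehicle (median -0.31), against 50.3% of all genes tested. After LPS 3 did (median -0.27), against 52.6%. By edgeR 0 were called in vehicle, with 2 at an unadjusted p under 0.05 and 1 by DESeq2. After LPS edgeR called 0, with 2 at an unadjusted p under 0.05, and DESeq2 called 0. Called platelet and endothelial markers and 1 progenitor marker, Procr, thus moved in the direction in which Gimap9 differed. So did 8 of 10 monocyte and macrophage markers, none of them called, against 50.3% of all genes tested. Cd3d, Ms4a1, the called basophil, mast cell and eosinophil markers and the neutrophil sum moved in the opposite direction. The part of all these genes in the Gimap9 result was not tested.

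Genes that work with GIMAP proteins were described in the same way. Of 10 genes of the autophagy machinery that GIMAP proteins meet (Gabarapl2, Map1lc3b, Atg7 and others), 0 were called in vehicle by edgeR, 0 had an unadjusted p under 0.05 and DESeq2 called 0; their median log2 fold change was 0.08. Gabarapl2, the partner of Gimap6, had a log2 fold change of -0.11 (SE 0.29; adjusted p = 1.00, edgeR). Of 7 BCL2 family genes, which GIMAP proteins have been reported to bind in lymphocytes, 0 were called by edgeR, 0 had an unadjusted p under 0.05 and DESeq2 called 0, with a median of 0.09. Of 13 immunity-related GTPases outside the family (Gbp2, Irgm1, Mx1 and others), 11 had a positive log2 fold change in vehicle, with a median of 0.84. None of the 13 was called by edgeR, 1 had an unadjusted p under 0.05 and DESeq2 called 0. For comparison, 50.3% of all genes tested had a positive log2 fold change in vehicle.

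Among all 12916 other genes tested, Gimap6 ranked 42nd by its correlation with Gimap9 (Pearson's r of log2 CPM, 0.89 over 12 libraries) and Gimap4 ranked 443rd (r 0.76). The 12 libraries share genotype and treatment, so these coefficients describe the groups as well as the genes. Within the 6 Runx1KO libraries r was 0.90 for Gimap6 and 0.88 for Gimap4. Within the 6 Control libraries it was -0.29 for Gimap6 and -0.23 for Gimap4. Gimap3 (r 0.0016) and Gimap1 (r -0.33) did not follow Gimap9 over the 12 libraries.

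The 5 genes outside the family with the pattern most like that of Gimap9 were Fam19a4 (r 0.96), Tcf7l2 (r 0.95), Slc16a10 (r 0.95), Cat (r 0.95) and Plac8 (r 0.94), over 12 libraries. Fam19a4, a secreted chemokine-like protein, had 21.5, 43.3 and 164.8 CPM in Runx1KO LPS and 0.601, 1.27 and 1.18 CPM in Control LPS. With vehicle it had 22.7, 32.1 and 3.65 CPM in Runx1KO and 0.420, 0.679 and 0.0423 CPM in Control. As for Gimap9, Runx1KO LPS library 1 and the vehicle libraries numbered 3 were the lowest of their groups. Fam19a4 was picked for its likeness to Gimap9 over these same 12 libraries, so this shared order carries no weight of its own. Tcf7l2, a transcription factor of the Wnt pathway, averaged 8.96 ± 4.37 CPM in Runx1KO LPS and 2.26 ± 0.546 CPM in Control LPS, and 6.55 ± 1.85 CPM in Runx1KO vehicle and 2.38 ± 0.534 CPM in Control vehicle (SD, n = 3 each). Catalase, encoded by Cat, averaged 55.6 ± 19.4 CPM in Runx1KO LPS and 16.5 ± 3.11 CPM in Control LPS, and 24.5 ± 8.79 CPM in Runx1KO vehicle and 10.7 ± 2.44 CPM in Control vehicle (SD, n = 3 each).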

How the data were processed

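The deposited table holds whole-number read counts per gene, 1 column for each of 12 libraries; per the submitters' processing notes the authors used STAR 2.6.0a, featureCounts and the mm9 build. The annotation release, strand setting and multimapper setting were not given in the sources used here. Columns were matched to samples by title, and 0 further columns were left out. Symbols were matched for 32620 of the 37310 identifiers, without version numbers. Total counts were 19023610 to 26225169, so counts of a few reads set the precision of the low members; intervals cover counting error only, since reads carry no molecular identifiers. Within each group, no library duplicated another: the 12 pairs differed by more than sampling noise (chi-square over genes with 20 or more summed counts).

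Genes were filtered with filterByExpr and scaled by TMM (factors 0.700 to 1.20), and 12917 were tested with edgeR 4.0.16's quasi-likelihood test in R 4.3.3, in 1 model of the 4 groups with 5 contrasts. P-values were adjusted by Benjamini-Hochberg over all genes tested, threshold 0.05. A prior count of 2 was used for log2 CPM. The steps were tested on simulated data. With 3 against 3, the smallest two-sided p of an exact permutation test is 0.1, hence single-gene tests relied on spread shared across genes. Alternatives were DESeq2 1.42.0, its size factors, library size alone, no filter, a block on library number, the compared groups alone and left-out libraries.

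The labels' library numbers were checked as pairs by the correlation of deviations from group means. Every same-numbered pair of Runx1KO and Control libraries of the same treatment was over 0.1 (0.479, 0.374 and 0.461 with vehicle, 0.566, 0.429 and 0.445 with LPS for numbers 1, 2 and 3). So was every pair of Control LPS and vehicle (0.667, 0.659 and 0.394). Over all pairs of groups, 16 of 18 same-numbered pairs were over 0.1. The others paired Runx1KO LPS library 3 with Runx1KO vehicle (0.00575) and with Control vehicle (-0.0535).

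Named genes are the 8 members, the 3 protein-coding genes on each side, the 5 genes most correlated with Gimap9, called members of the lists (up to 4 per direction) and Runx1. Ppbp, called but outside the first 4 by adjusted p in its list, was named beside these after its values were seen. The same holds for the examples of lists with 0 calls, Ly6g, Adgre1, Pecam1 and the uncalled T and NK cell markers. Members, lists and motifs were chosen with earlier results of these data known; the list of LPS-induced genes was added after the levels had been seen. The values of 1 gene of the B lineage list, and the counts and sums of that list, are not reported here.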

Additional observations from a re-analysis of the deposited data

How the results depend on the processing

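In vehicle, the count of genes called higher in Runx1KO was 158 with DESeq2, 114 with the replicate block and 0 to 56 when libraries were left out; the count called lower was 50 with library size alone, 228 with DESeq2, 201 with the block and 1 to 115 when libraries were left out. After LPS, it was 175 with DESeq2, 117 with the block, 13 with the compared groups alone and 0 to 56 with libraries left out for genes higher, and 226, 185, 14 and 2 to 80 for genes lower. The lowest counts came from leaving out all 4 libraries of 1 number. DESeq2 called 1 gene lower in Runx1KO LPS against Runx1KO vehicle, where edgeR called 0. For that contrast the libraries numbered 1 and 2 correlated as pairs (0.314 and 0.537) and those numbered 3 did not (0.00575), and the block also left 0 genes called. The block changed no call of a member in the contrasts tested, which leave out Runx1KO LPS against Control LPS; the vehicle log2 fold change of Gimap3 was -0.21 with it. The direction of the vehicle difference held for Gimap9 (2.25 to 2.89), Gimap6 (1.14 to 2.01) and Gimap4 (0.43 to 1.31) when libraries were left out, and not for Gimap1 (-0.83 to 0.10) or Gimap3 (-0.83 to 0.53). After LPS, Gimap9 had 2.61 to 3.58, Gimap1 -1.32 to 0.17 and Gimap3 -0.51 to 0.54, and Gimap3 had -0.08 with library size alone. For LPS against vehicle in Control, ranges with libraries left out were -0.63 to 0.50 (Gimap1), -0.69 to 0.33 (Gimap3), -0.35 to 0.39 (Gimap4) and -0.019 to 0.29 (Gimap6). In Runx1KO they were -0.72 to 0.72 (Gimap3), -0.091 to 0.83 (Gimap4), -0.30 to 0.84 (Gimap6) and 0.73 to 1.93 (Gimap9). For the difference of responses they were -0.79 to 0.35 (Gimap1), -0.55 to 0.90 (Gimap3), -0.41 to 0.81 (Gimap4), -0.42 to 0.70 (Gimap6) and 0.06 to 0.99 (Gimap9). Scaling by library size alone gave a median log2 fold change over all genes of -0.14 instead of -0.02 for the Control LPS response, -0.28 instead of 0.03 for that of Runx1KO and -0.15 instead of 0.05 for the difference. With it, the LPS response was -0.040 for Gimap1 and -0.078 for Gimap4 in Control and -0.012 for Gimap4 in Runx1KO, and the difference was -0.26 for Gimap3 and -0.010 for Gimap6. The cause of these shifts was not tested. Gimap1, Gimap3, Gimap5, Gimap7 and Gimap8 had at most 36 reads in a library, and Gimap4 at most 30 in a Control library; how far depth or the spread between libraries limits them was not tested.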
